A study of Mus musculus with 8 samples.

Results

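Homologous recombination is the repair of a broken or stalled DNA molecule by copying from its sister chromatid, and the Fanconi pathway removes crosslinks between DNA strands and hands the resulting breaks to it. Both act mainly while DNA is being replicated, and resting cells keep many of their genes at low levels. Here 9 genes of these pathways, of 26062 in the count table, were followed by RNA sequencing in microglia, macrophages that live in the brain. The genes were Rad51ap1, Rad54l, Brca1, Brca2, Fancd2, Fanci, Exo1, Blm and Chek1, taken by their symbols. They were chosen with earlier results of these data known. Each of the 9 matched 1 row of the table and passed the filter on low counts.

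The cells came from the LGN (lateral geniculate nucleus, where retinal axons end in the thalamus) of adult wild type male C57BL/6J mice aged 2 to 3 months, with no transgene. They were purified with CD11b magnetic beads. CD11b is the product of Itgam, an integrin that other myeloid cells also carry. Uninjured mice gave 2 libraries, and mice at 1 day and at 3 days after crush of both optic nerves gave 3 libraries each. Crush severs the axons of retinal ganglion cells in the nerve, outside the LGN. Whether each library stands for 1 animal or for a pool is not stated, so the p-values reflect library-to-library spread that may in part be technical.

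The 9 genes act at successive steps. EXO1 is a nuclease that chews back the ends of a break. BRCA1 promotes this resection, and BRCA2 prepares the exposed strand for pairing. RAD51AP1 and RAD54L help that strand to invade the sister chromatid, and the helicase BLM takes apart the joined intermediates. FANCD2 and FANCI form the clamp that is ubiquitinated at a crosslink, and CHEK1 is the kinase that relays the ATR alarm and holds the cell cycle. Many genes of DNA replication and recombination carry binding sites for E2F factors, which switch them on as cells enter S phase.

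Promoter sequences, which the counts did not use, were searched for 4 heptamers of the E2F type, TTCCCGC and its variants TTCGCGC, then TTGCCGC, and also TTGGCGC, on both strands. RefSeq promoters (250 bases before to 50 after the start, mouse build GRCm38.p6) were matched by symbol for 7 of the 9 genes, with none printed for Exo1 and Fancd2. A heptamer lay in 6 of these 7 promoters, all but that of Rad54l. It lay in 9.6% of all 32544 promoters, in 15.5% of those of tested genes, and in 19.0% of those of tested genes with at least the lowest GC percent of the 7. These shares, and that for CCAAT below, count promoters, of which a gene can have several. Each of the 7 genes entered by its first listed promoter only. The windows below run 5′ to 3′ on the strand of the gene with the heptamer in capitals. They are shown because the choice of genes did not use promoter sequence. No single heptamer lay in all 6 promoters. Many genes of this kind carry E2F sites, as said above, so the choice of genes is not independent of the motif.
Rad51ap1, chr6:126939559-126939585, minus strand: ctggttttcgGCGGGAAttgaaaccgc
Brca2, chr5:150522443-150522469, plus strand: ttaggccacaGCGGGAAacagacacac
Fanci, chr7:79392346-79392372, plus strand: gtggagtagaGCGGGAAttttggaagg
Chek1, chr9:36726609-36726625, minus strand: gcaggttttgGCGGGAA
Brca1, chr11:101551918-101551944, minus strand: ctagcgctagGCGCCAAgcggccggtt
Blm, chr7:80535124-80535150, minus strand: atcatccttcTTGCCGCgcagagcgtg
The first 4 windows hold TTCCCGC as its reverse complement, and they place it on both sides of the start, at 13 to 19 bases in Rad51ap1, 19 to 25 in Fanci, 44 to 50 in Chek1 and -168 to -162 in Brca2. Brca1 holds the reverse complement of TTGGCGC at 22 to 28, and Blm holds TTGCCGC as spelled at -142 to -136. The Rad54l promoter was searched for CCAAT, the box bound by NF-Y, and holds it at -50 to -46.
Rad54l, chr4:116123726-116123750, minus strand, CCAAT in capitals: ctgaacgcagCCAATaggggactgt
CCAAT on either strand lay in 4 of the 7 promoters (Rad51ap1, Rad54l, Brca1 and Blm) and in 37.4% of all promoters. A match of letters is a description and not a bound site.

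Libraries held 13756487 to 14993580 counts at 3 days, 12700098 to 15489477 at 1 day and 17533499 to 17994861 in uninjured mice. Levels are CPM, counts divided by library depth with TMM scaling, and 1 count was worth 0.0514 to 0.0806 CPM. Microglial markers were abundant in all 8 libraries, with 8743 to 10319 CPM summed over 12 markers at 3 days, 12435 to 15436 at 1 day and 8823 to 11597 in uninjured mice. Markers of neurons summed to at most 18.1 CPM and those of lymphocytes and natural killer cells to at most 31.6 CPM in any library, while endothelial markers summed to 556 CPM or more in every library. In such bulk samples more cells with an RNA and more RNA per cell cannot be told apart.

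The comparison of 3 days with no injury asked which repair genes had moved once the response was established. All 9 genes were higher at 3 days in every library than in both uninjured libraries. Such a complete separation upward held for 20.1% of tested genes. By edgeR's quasi-likelihood test, adjusted over 17390 genes, 5 of the 9 rose (Exo1, Rad51ap1, Brca1, Fancd2 and Blm) and none fell, where 2.49% of tested genes were called higher and 0.983% lower (3.47% in either direction). The median log2 fold change of the 9 was 2.28, against 0.00 for all tested genes, and 8 of the 9 were higher at an unadjusted p under 0.05, as 9.21% of tested genes were, with 0 lower by edgeR, DESeq2 or limma-voom at that level (6.60% of tested genes by edgeR). The 9 together took 169.6, 234 and 192 CPM at 3 days, against 51.0 and 39.7 CPM in uninjured mice. Since the 9 were chosen with earlier results of these data known, the contrast with all tested genes is a description and not independent support.

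**Figure D1:**
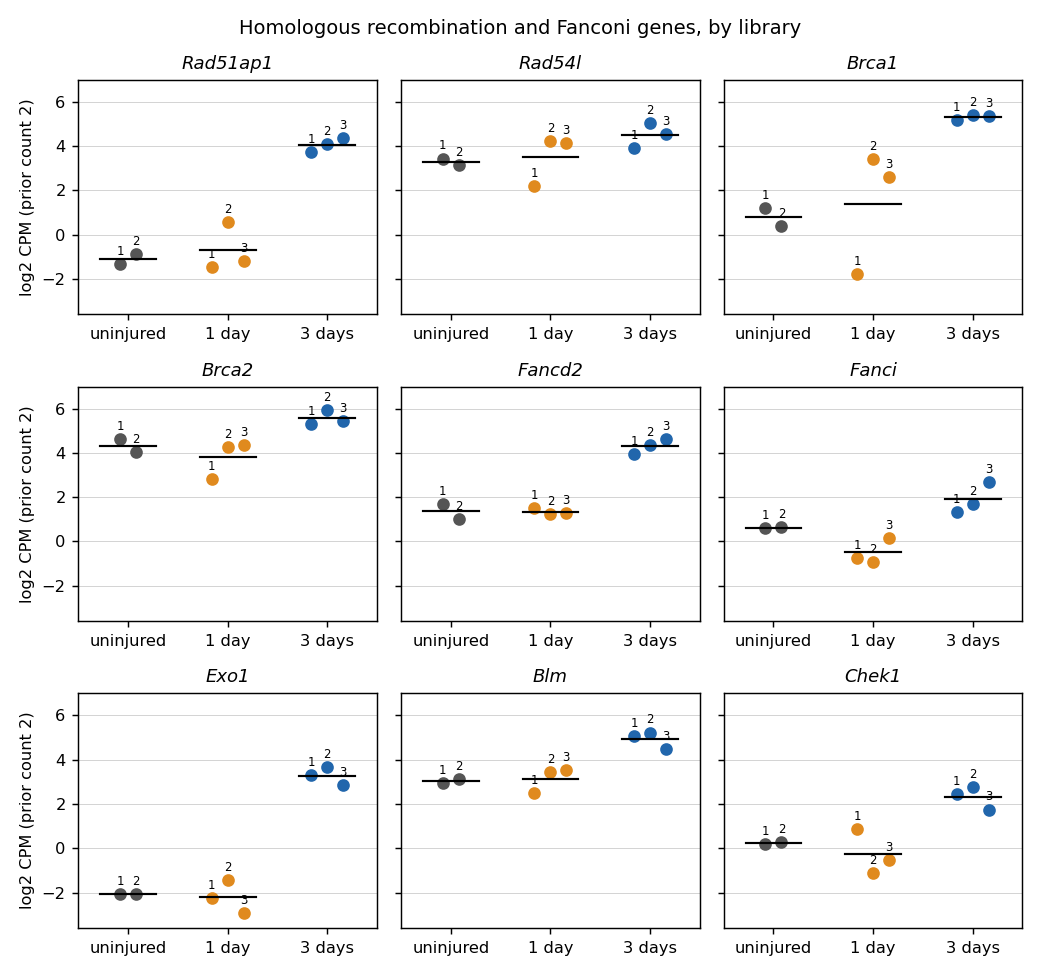
Levels of the 9 genes in each library, as log2 CPM with a prior count of 2, in uninjured mice and at 1 and 3 days after crush. Numbered points are replicates and black lines are group means; every point at 3 days lies above both uninjured points, and the points at 1 day spread widely for Brca1, Rad51ap1 and Rad54l.

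Exo1 (ENSMUSG00000039748), the resection nuclease, was almost without counts before 3 days. It had 9.79, 12.6 and 7.17 CPM at 3 days, against 0.107 and 0.103 CPM in uninjured mice. All 3 later libraries stood far above the uninjured pair, each of which held 2 counts. The log2 fold change was 6.45 (SE 1.08, adjusted p = 0.00435), the largest of the 9. Scaled for depth, the 408 counts at 3 days were 94.7 times the 4 counts of uninjured mice, with an exact 95% interval of 36.7 to 349 that covers counting error only.

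Rad51ap1 (ENSMUSG00000030346), whose protein stimulates strand invasion, came next. It had 13.1, 16.7 and 20.5 CPM at 3 days, against 0.267 and 0.412 CPM in uninjured mice. The log2 fold change was 5.59 (SE 0.86, adjusted p = 0.00231), and the groups lay far apart. Rad54l (ENSMUSG00000028702), a motor protein that moves along DNA during strand invasion, had 14.9, 32.8 and 23.0 CPM at 3 days, against 10.7 and 8.75 CPM in uninjured mice. Replicate 1 at 3 days lay close to the uninjured pair, and the call was not reached at a log2 fold change of 1.27 (SE 0.54, 95% interval 0.12 to 2.42, adjusted p = 0.253). Of the annotated exonic bases of Rad54l, 1184 of 7706 are shared with Lrrc41 on the other strand, and reads from the overlap cannot be told apart without a strand setting. Lrrc41 was not called in any comparison.

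Brca1 (ENSMUSG00000017146) reached the highest mean level per annotated exon length of the 9 at 3 days. It had 35.7, 42.2 and 41.0 CPM at 3 days, against 2.19 and 1.18 CPM in uninjured mice. The 3 libraries at 3 days lay close together, and the log2 fold change was 4.55 (SE 1.06, adjusted p = 0.0431), the least certain of the 5 calls. Brca2 (ENSMUSG00000041147), which acts after resection, already stood well above Brca1 without injury. It had 39.8, 62.1 and 43.7 CPM at 3 days, against 24.6 and 16.4 CPM in uninjured mice. The groups did not overlap, yet the log2 fold change of 1.24 was not called (SE 0.41, 95% interval 0.36 to 2.13, adjusted p = 0.130).

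Blm (ENSMUSG00000030528), the helicase whose human counterpart is lost in Bloom syndrome, had 33.2, 37.3 and 22.5 CPM at 3 days, against 7.57 and 8.49 CPM in uninjured mice. Replicate 3 was the lowest at 3 days and still clear of the uninjured pair. The log2 fold change was 1.95 (SE 0.42, adjusted p = 0.0196). Chek1 (ENSMUSG00000032113), the checkpoint kinase, had 5.42, 6.69 and 3.22 CPM at 3 days, against 1.01 and 1.08 CPM in uninjured mice. It was higher in 3 of 3 libraries but not called, at a log2 fold change of 2.28 (SE 0.94, 95% interval 0.26 to 4.29, adjusted p = 0.239).

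The partners of the crosslink clamp stood apart in level at 3 days. Fancd2 (ENSMUSG00000034023) had 15.4, 20.6 and 24.3 CPM at 3 days, against 3.15 and 1.90 CPM in uninjured mice. Its log2 fold change was 2.99 (SE 0.52, adjusted p = 0.00546), with no overlap. Fanci (ENSMUSG00000039187) had 2.35, 3.12 and 6.37 CPM at 3 days, against 1.39 and 1.44 CPM in uninjured mice. Replicate 3 was the highest at 3 days and replicate 1 lay nearest the uninjured pair, and the log2 fold change of 1.47 was not called (SE 0.93, 95% interval -0.51 to 3.45, adjusted p = 0.498). Of its 5774 exonic bases, 921 are shared with Polg on the other strand, which was not called in any comparison. Fancd2 shares 257 of 7937 with a neighbouring antisense gene.

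The 5 calls rested on the uninjured pair. Without uninjured replicate 1 none of the 9 was called, and without uninjured replicate 2 only Rad51ap1 was, the lone uninjured library being assumed to vary like the other groups. The count was 3 without 3 day replicate 1, 3 without replicate 2 and 2 without replicate 3. Brca1 lost its call in each of these 5 fits and also without 1 day replicate 3 (adjusted p = 0.0765). All 9 log2 fold changes stayed positive in each of these fits. Other markers moved too: Itgam, whose product served for purification, fell to 298 ± 5.07 CPM at 3 days (SD, n = 3), against 507 ± 125 CPM in uninjured mice (SD, n = 2), 3 of 12 microglial markers fell, and mitochondrially encoded genes took 22.8 to 30.3% of counts at 3 days, against 21.3 to 22.5%. Summed markers of lymphocytes and natural killer cells stood at 15.2 to 31.6 CPM at 3 days, against 12.8 to 18.2 CPM in uninjured mice. Endothelial markers were at 1040 to 1145 CPM against 1284 to 1465 CPM, border macrophage markers at 397 to 501 CPM against 604 to 734 CPM, and astrocyte markers at 64.8 to 78.9 CPM against 126 to 151 CPM. Summed markers of monocytes stood at 11.2 to 15.5 CPM at 3 days, against 13.4 to 23.2 CPM in uninjured mice, and those of neutrophils at 22.7 to 46.6 CPM against 38.5 to 51.6 CPM. Mural cell markers stood at 1012 to 1154 CPM at 3 days, against 1330 to 1564 CPM in uninjured mice. Choroid plexus and ependymal markers ranged from 620.2 to 3550 CPM at 3 days and from 520.5 to 5486 CPM in uninjured mice. The part of these markers in the result was not tested.

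**Figure D2:**
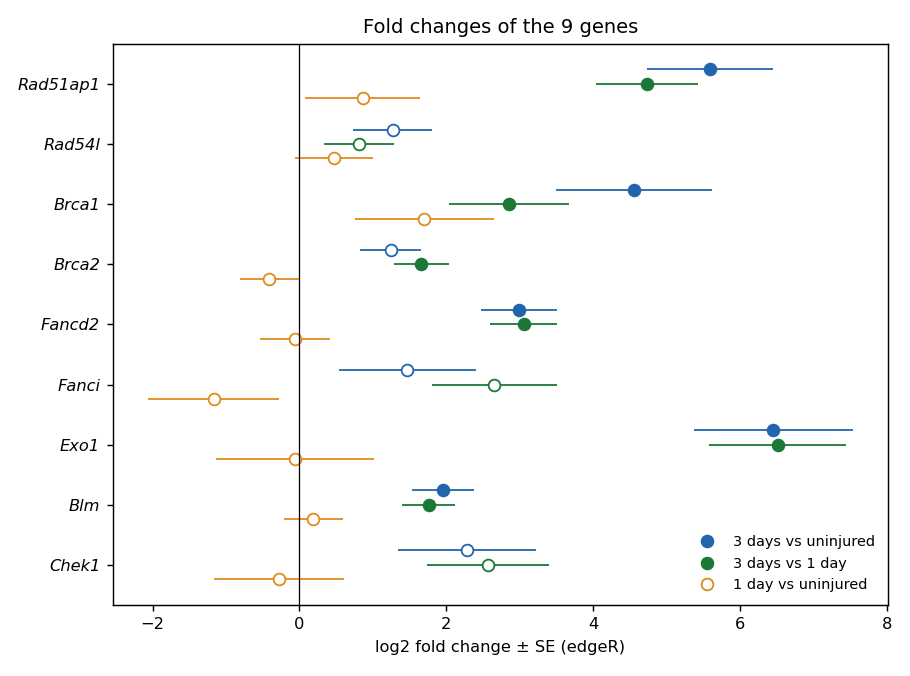
Log2 fold changes of the 9 genes with their standard errors, from edgeR, for 3 days against uninjured, 3 days against 1 day and 1 day against uninjured. Filled points passed an adjusted p of 0.05: 5, 6 and 0 of the 9 genes in these comparisons. The comparisons share libraries.

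The comparison of 1 day with no injury asked whether the genes had moved early. By edgeR 0 of the 9 were called and 0 had an unadjusted p under 0.05, as 14.8% of tested genes had. DESeq2 and limma-voom also called 0, and 0.610% of tested genes were called higher and 1.16% lower (1.77% in either direction). The median log2 fold change was -0.06, against 0.06 for all tested genes. The 9 genes summed to 22.3, 63.3 and 58.9 CPM at 1 day, against 51.0 and 39.7 CPM in uninjured mice, so the libraries at 1 day lay on both sides of the uninjured pair. Over the same comparison 7 of 10 endothelial markers fell, to 556 to 667 CPM in sum at 1 day against 1284 to 1465 CPM in uninjured mice, and 3 of 7 choroid plexus and ependymal markers fell, to 0.467 to 56.7 CPM against 520.5 to 5486 CPM. Summed markers of monocytes stood at 24.7 to 45.6 CPM at 1 day against 13.4 to 23.2 CPM in uninjured mice. Those of neutrophils stood at 57.7 to 143 CPM against 38.5 to 51.6 CPM, and those of mural cells at 719 to 892 CPM against 1330 to 1564 CPM. Itgam stood at 1132 to 1365 CPM at 1 day against 419 to 596 CPM, and mitochondrially encoded genes took 13.6 to 21.9% of counts against 21.3 to 22.5%. Their part in the values at 1 day was not tested.

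The spread at 1 day was wide for several genes. Brca1 had 0.156, 10.4 and 5.91 CPM in replicates 1, 2 and 3 at 1 day, against 2.19 and 1.18 CPM in uninjured mice. Replicate 1, with 2 counts, was below the uninjured pair and the others above it, and the log2 fold change was 1.70 (SE 0.95, 95% interval -0.40 to 3.80, adjusted p = 0.467). Without 1 day replicate 1, Brca1 was called higher at 2.27 (adjusted p = 0.0200), the only call of the 9 at 1 day in any fit. That library was also the lowest of its group for Rad51ap1, Rad54l, Brca2 and Blm, but the highest for Fancd2 and Chek1.

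Rad51ap1 had 0.233, 1.36 and 0.308 CPM at 1 day, against 0.267 and 0.412 CPM in uninjured mice, with replicate 2 alone high. Rad54l had 4.44, 18.6 and 17.4 CPM at 1 day, against 10.7 and 8.75 CPM, and Brca2 had 7.00, 19.0 and 20.1 CPM, against 24.6 and 16.4 CPM. In both genes the groups overlapped and replicate 1 was the low one. Exo1 had 0.0778, 0.241 and 0 CPM at 1 day, from 1, 3 and 0 counts, against 0.107 and 0.103 CPM in uninjured mice. The 95% interval of its log2 fold change ran from -2.35 to 2.22, so a sizeable change in either direction remains possible.

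Fancd2, the steadiest of the 9 at 1 day, had 2.72, 2.24 and 2.28 CPM, against 3.15 and 1.90 CPM in uninjured mice. Its log2 fold change was -0.06 with a 95% interval of -1.08 to 0.95, so changes beyond about those bounds lie outside the interval. Blm had 5.45, 10.7 and 11.4 CPM at 1 day, against 7.57 and 8.49 CPM, and Chek1 had 1.71, 0.321 and 0.554 CPM, against 1.01 and 1.08 CPM. Both overlapped the uninjured pair. Fanci was the exception, at 0.467, 0.401 and 0.985 CPM at 1 day, below both uninjured libraries at 1.39 and 1.44 CPM. Such separation downward held for 15.0% of tested genes, and the log2 fold change of -1.17 was not called (SE 0.89, adjusted p = 0.621).

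The comparison of 3 days with 1 day, which rests on 3 libraries in each group, asked when the rise took place. Here 6 of the 9 rose (Exo1, Rad51ap1, Fancd2, Brca1, Blm and Brca2) and none fell, where 5.24% of tested genes were called higher and 5.75% lower (11.0% in either direction). Separation upward was complete for 8 of the 9 genes, all but Rad54l, against 16.1% of tested genes. The median log2 fold change was 2.65, against 0.02 for all tested genes. The libraries at 3 days enter both comparisons that show a rise, so these are not independent of each other. The limit from the choice of the 9 holds here too.

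Exo1 differed most between the times, at a log2 fold change of 6.51 (SE 0.93, edgeR adjusted p = 0.000571), followed by Rad51ap1 at 4.73 (SE 0.69, adjusted p = 0.000673) and Fancd2 at 3.05 (SE 0.45, adjusted p = 0.00068). These 3 and Blm, at 1.76 (SE 0.36, adjusted p = 0.00657), were called in each fit that left out a library and under each other setting. Brca2 rose by 1.66 (SE 0.37, adjusted p = 0.00998) and lost its call only without 3 day replicate 2 (adjusted p = 0.0525). Its rise from 1 day was called and that from no injury was not, and the difference between these was not called either, Brca2 having moved by -0.41 at 1 day (SE 0.40, adjusted p = 0.722).

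Brca1 was higher by 2.85 (SE 0.82, adjusted p = 0.0483), close to the threshold, and its call held in 2 of the 8 fits that left out a library, those without 1 day replicate 1 (2.28, adjusted p = 0.00278) and replicate 2 (3.67, adjusted p = 0.0299). Fanci at 2.65 (SE 0.85, adjusted p = 0.0596) and Chek1 at 2.56 (SE 0.83, adjusted p = 0.0604) lay just beyond it with no overlap of libraries, and DESeq2 called both (adjusted p = 0.0146 and 0.0148). Rad54l, at 0.81 (SE 0.47, 95% interval -0.19 to 1.80, adjusted p = 0.298), was the only one of the 9 whose libraries overlapped, since replicates 2 and 3 at 1 day exceeded replicate 1 at 3 days. Between 3 days and 1 day other cell types moved as well. Endothelial markers rose in 6 of 10, to summed levels of 1040 to 1145 CPM at 3 days, against 556 to 667 CPM at 1 day, mural cell markers rose in 4 of 8, at 1012 to 1154 CPM against 719 to 892 CPM, and choroid plexus and ependymal markers rose in 4 of 7, at 620.2 to 3550 CPM against 0.467 to 56.7 CPM. Summed lymphocyte and natural killer cell markers were at 15.2 to 31.6 CPM at 3 days against 11.3 to 13.4 CPM at 1 day, and monocyte markers at 11.2 to 15.5 CPM against 24.7 to 45.6 CPM. Neutrophil markers were at 22.7 to 46.6 CPM at 3 days against 57.7 to 143 CPM at 1 day. Microglial markers fell in 5 of 12, with Itgam at 293 to 303 CPM at 3 days against 1132 to 1365 CPM at 1 day. Mitochondrially encoded genes took 22.8 to 30.3% of counts at 3 days against 13.6 to 21.9% at 1 day. The part of these in the result was not tested.

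Divided by annotated exon length, levels can be set beside each other. In uninjured mice Brca2 (1.50 ± 0.429 CPM per kb, SD, n = 2), Rad54l (1.26 ± 0.181) and Blm (0.915 ± 0.0737) were the highest, and Exo1 the lowest (0.0124 ± 0.000318), a span of 121 times. Brca2 and Rad54l did not differ beyond their spread. Fancd2 (0.318 ± 0.111), Fanci (0.245 ± 0.00657), Chek1 (0.226 ± 0.0102) and Brca1 (0.197 ± 0.0832) followed, with Fanci and Chek1 each within the spread of Brca1. Fanci and Chek1 rested on 54 and 40 counts in uninjured mice, too few to order these 2 genes. At 1 day the order again began with Rad54l, Brca2 and Blm and ended with Exo1, and the span was 139 times. At 3 days the span was 6.80 times, with Brca1 at 4.65 ± 0.406 CPM per kb (SD, n = 3) and Fanci at 0.684 ± 0.369. Brca2 (3.56 ± 0.874), Blm (3.53 ± 0.873), Rad51ap1 (3.48 ± 0.770) and Rad54l (3.06 ± 1.16) did not differ beyond their spread at 3 days. The 3 genes highest without injury had fitted folds of 2.37 for Brca2, 2.42 for Rad54l and 3.86 for Blm, and the lowest, Rad51ap1 and Exo1, of 48.2 and 87.2. A gene's uninjured level enters its own fold, so these are not independent.

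**Figure D3:**
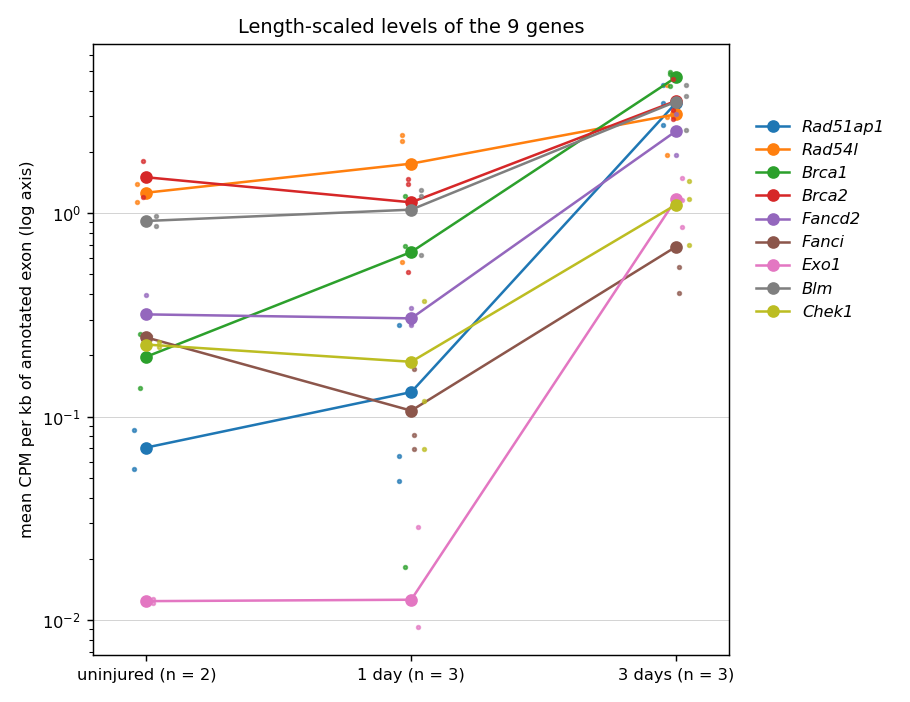
Mean CPM per kb of annotated exon (log axis) for the 9 genes in uninjured mice and at 1 and 3 days, with small points for single libraries; Exo1 in 1 day replicate 3, at 0, is not drawn. The spread between highest and lowest gene was 121 times without injury, 139 times at 1 day and 6.80 times at 3 days.

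Bard1, Palb2, Rbbp8, Top3a, Rmi1 and Atr, which act beside the 9, were chosen after their values were seen, so their pattern says nothing of partners in general. Bard1, the partner of BRCA1, had 12.4 ± 4.23 CPM at 3 days (SD, n = 3), against 1.91 ± 0.234 CPM in uninjured mice (SD, n = 2). It was not called between these groups (log2 fold change 2.69, adjusted p = 0.126) and rose against 1 day (4.76, SE 0.86, adjusted p = 0.00285). Palb2, which bridges BRCA1 and BRCA2, had 6.20 ± 0.145 CPM at 3 days and 6.79 ± 1.53 CPM in uninjured mice (log2 fold change -0.13, SE 0.60). Rbbp8, which starts resection, was at -0.03 (SE 0.23), and the BLM partners Top3a and Rmi1 were at -0.03 (SE 0.48) and 0.44 (SE 0.33), none of them called. Atr, the kinase upstream of CHEK1, was at 0.14 (SE 0.27) and was not called.

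Of 36 other genes of homologous recombination tested, 3 rose at 3 days against uninjured mice and none fell, with a median log2 fold change of 0.41. Among all tested genes, 2.49% were called higher and 0.983% lower in this comparison. Brip1, a helicase that binds BRCA1, had 21.5 ± 2.45 CPM at 3 days, against 1.71 ± 0.896 CPM (log2 fold change 3.64, SE 0.58). Polq, the polymerase of an alternative end joining route, had 19.6 ± 3.07 CPM against 0.976 ± 0.580 CPM (4.32, SE 0.87). Parpbp, an inhibitor of homologous recombination, had 186 counts at 3 days and 1 in uninjured mice, a depth-scaled ratio of 173 with an exact 95% interval of 30.6 to 6855 for counting error. The count was 1 without uninjured replicate 1, 0 without replicate 2 and 1 without 3 day replicate 1 or 3. Against 1 day, 7 rose (3 without 3 day replicate 3), and edgeR called 0 lower, 1 being lower at an unadjusted p under 0.05 and 1 by DESeq2. In that comparison edgeR called 5.24% of tested genes higher and 5.75% lower.

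Of 21 other Fanconi genes, 1 rose at 3 days against uninjured mice, where 2.49% of tested genes were called higher. A count of 1 in 21 is near that share. Usp1, which removes ubiquitin from FANCD2, had 44.6 ± 8.02 CPM at 3 days (SD, n = 3), against 20.9 ± 1.13 CPM (SD, n = 2), at an adjusted p of 0.0485. The call was lost on leaving out any 1 of 6 libraries: either uninjured one, 1 day replicate 3, or any at 3 days. It was also lost under RLE, library size and upper quartile scaling and without the low-count filter. Ube2t, the enzyme that attaches that ubiquitin, had 10.6 ± 3.10 CPM at 3 days against 2.01 ± 1.83 CPM and was not called (log2 fold change 2.39, SE 0.94). The median of the 21 was 0.50. Against 1 day, where 5.24% of tested genes were called higher, Usp1 (0.95, SE 0.25) and Ube2t (2.80, SE 0.82) rose. That count was 0 without 3 day replicate 2 or 3 and 1 without 3 day replicate 1 or either of 1 day replicates 1 and 2.

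Of 18 other ATM and ATR checkpoint genes, 3 rose at 3 days against uninjured mice, with a median of 0.65. In this comparison 2.49% of tested genes were called higher. Clspn, which encodes claspin, the adaptor through which ATR reaches CHEK1, had 37.6 ± 4.77 CPM at 3 days against 0.391 ± 0.175 CPM (log2 fold change 6.56, SE 0.60). Topbp1, the activator of ATR, had 84.5 ± 11.3 CPM against 33.8 ± 4.09 CPM (1.32, SE 0.24), and Tipin, of the fork protection complex, had 14.5 ± 3.36 CPM against 2.55 ± 1.14 CPM (2.50, SE 0.61). The count was 1 without uninjured replicate 1, uninjured replicate 2 or 3 day replicate 3, and 5 and 6 without 1 day replicates 1 and 2. Against 1 day, 6 rose and none fell (3 without 3 day replicate 1 or 3). Among all tested genes, 5.24% were called higher there and 5.75% lower.

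Other repair routes were counted in the same comparison, without a test between lists. Of all tested genes, edgeR called 2.49% higher and 0.983% lower. Before adjustment, 9.21% of them passed the 0.05 level upward and 6.60% downward (15.8% together). With 7 to 17 genes a list, 0 calls is near these called shares. Of 13 genes of non-homologous end joining, 0 were higher by edgeR, DESeq2, limma-voom or an unadjusted p under 0.05. Dclre1c, the Artemis nuclease, fell to 139.9 ± 11.0 CPM at 3 days, against 252 ± 20.0 CPM (log2 fold change -0.85, SE 0.15, adjusted p = 0.00725, lost without uninjured replicate 1). Of 7 mismatch repair genes, edgeR, DESeq2 and limma-voom called 0. An unadjusted p under 0.05 was found for 1 of the 7, near the 15.8% of all tested genes. Of 17 nucleotide excision genes, edgeR called 0, while 5 were higher and 1 was lower by unadjusted p under 0.05. The 5 of 17 lie above the 9.21% of all tested genes, a difference that was not tested. DESeq2 called 2 higher and 1 lower, and limma-voom called 1 higher. Of 17 base excision genes, Neil3 (18.0 ± 3.53 CPM at 3 days against 0.472 ± 0.0862 CPM) and Ung (10.9 ± 2.04 against 0.781 ± 0.350 CPM), both DNA glycosylases, rose. That count was 0 without either uninjured library or 3 day replicate 1 or 3, and 1 without 3 day replicate 2.

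**Figure D4:**
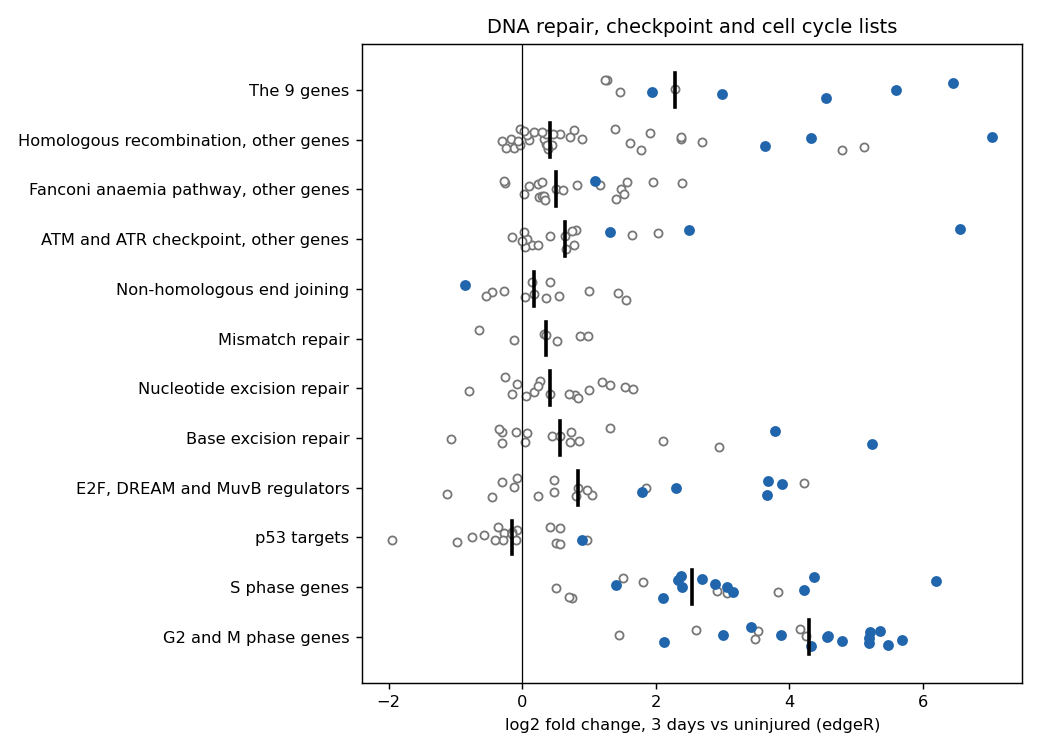
Log2 fold change at 3 days against uninjured, from edgeR, for each tested gene of the repair, checkpoint and cell cycle lists. Filled points were called, and black bars are medians, from -0.15 for p53 targets to 4.29 for G2 and M phase genes, with 2.28 for the 9 genes.

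Many cell cycle genes were also higher at 3 days than in uninjured mice, where 2.49% of all tested genes were called higher. Of 20 S phase genes tested 12 rose and none fell at 3 days against uninjured mice (median 2.54), and of 20 genes of G2 and M phase 14 rose and none fell (median 4.29). Mcm5, a subunit of the replicative helicase, had 53.9 ± 7.28 CPM at 3 days against 2.59 ± 0.193 CPM, and Mki67, the Ki-67 antigen, 1224 ± 327 CPM against 33.5 ± 2.82 CPM. Pcna, the sliding clamp, had 163 ± 32.2 CPM at 3 days against 114 ± 26.6 CPM and was not called. The S phase count was 5 and 6 without uninjured replicates 1 and 2 and 7 without 3 day replicate 3, and that of G2 and M phase 8, 8 and 9.

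Of 19 genes of the E2F, DREAM and MuvB regulators, 5 rose at 3 days against uninjured mice and none fell (median 0.84). The share of all tested genes called higher was 2.49%. E2f1 had 12.5 ± 1.91 CPM at 3 days against 0.836 ± 0.127 CPM, E2f2 had 30.9 ± 9.01 against 6.26 ± 0.247 CPM, and Tfdp1, the dimer partner of E2F, had 23.7 ± 5.27 against 6.87 ± 0.694 CPM. Foxm1, a factor for late cell cycle genes, had 62.5 ± 22.8 CPM against 4.91 ± 0.977 CPM. The fifth, E2f8, a repressor of the family, had 48.1 ± 11.8 CPM at 3 days against 3.75 ± 0.577 CPM and was chosen after its value was seen, to complete the 5. The count was 1 without either uninjured library, 2 without 3 day replicate 1 or 3 and 3 without replicate 2.

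Targets of p53, which DNA damage can switch on, had a median log2 fold change of -0.15 at 3 days against uninjured mice. Among all tested genes 2.49% were called higher and 0.983% lower, and of the 18 targets 1 was called higher and none lower. That gene was Cdkn1a, the p21 inhibitor of the cell cycle, at 361 ± 51.7 CPM at 3 days against 194 ± 26.3 CPM (log2 fold change 0.90, SE 0.23). It lost its call without either uninjured library or any library at 3 days, and under RLE, library size and upper quartile scaling. Of the 18, 12 had a negative log2 fold change, down to -1.95, and 6 a positive one, up to 0.97. By edgeR at an unadjusted p under 0.05, 4 were higher and 2 lower. At that level 9.21% of tested genes were higher and 6.60% lower. Trp53inp1 (-0.76, SE 0.33), Mdm2 (0.51, SE 0.20) and Bax (0.97, SE 0.38) were not called, nor was Trp53 itself (0.57, SE 0.22). At 1 day edgeR called 0 genes in each of the repair, checkpoint, E2F, p53 and cell cycle lists. DESeq2 called 0 to 2 a list in each direction and limma-voom 0 to 1. By edgeR at an unadjusted p under 0.05, 0 to 5 a list lay in each direction, where 7.30% of tested genes were higher and 7.47% lower. Of 20 S phase genes 5 were higher and 2 lower at that level (median log2 fold change 0.44). Of 20 genes of G2 and M phase 1 was higher and 5 were lower (median -0.23).

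Over the 8 libraries, 8 genes of 10181 followed the mean standardized log2 CPM of the 9 most closely. Top2a, the topoisomerase that untangles sister chromatids, had a Pearson r of 0.9955, Foxm1 0.9844, Atad5, which unloads the PCNA clamp, 0.9871, the kinesin Kif20b 0.983 and Trip13, a remodeller of checkpoint proteins, 0.982. The others were Pck2 (0.9907), a mitochondrial enzyme of phosphoenolpyruvate synthesis, Psat1 (0.9872), of serine synthesis, and Cox6a1 (0.9831), a subunit of cytochrome c oxidase. Psat1 averaged 28.6 CPM in uninjured mice, 27.0 CPM at 1 day and 161 CPM at 3 days. The 8 points share the 3 groups, so these values describe a common profile and carry no test. Among the 9, the correlation with the mean of the other 8 was highest for Blm (0.96), Exo1 (0.95) and Rad51ap1 (0.95) and lowest for Rad54l (0.74) and Chek1 (0.73).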

How the data were processed

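Raw read counts per Ensembl gene were deposited by the authors, 1 column per library. Per the labels' protocols, the RNA, from a micro-scale extraction kit, was amplified linearly before sequencing. Per the submitters' processing notes, FastQC, STAR, HTSeq and build mm9 were used. Their versions, the annotation and the strand used in counting were not given in the sources used here. Symbols (25925 of 26062 IDs; the rest held 0.127% of counts), exon lengths and overlaps came from GENCODE M21 on another build, so no coordinates of it are given. Promoters are RefSeq's.

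Counts were tested in edgeR 4.0.16 (R 4.3.3): filterByExpr left 17390 genes, then TMM scaling and 1 robust quasi-likelihood fit to the 8 libraries together, with a biological coefficient of variation of 51.1%. Calls are Benjamini-Hochberg adjusted p-values under 0.05 over all tested genes. Alternatives were DESeq2 1.42.0, limma-voom 3.58.1, other scalings and filters, a fit to 2 groups, a replicate block and each library left out. The procedure was tested on simulated data. Libraries of a group differed by more than sampling noise (chi-square per degree of freedom 31.4 to 64.8).

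The 9 genes and the lists were chosen with earlier results of these data known. Named genes are the 9, up to 4 genes of each list with the smallest p at 3 days against uninjured, Mki67, Top2a, Mcm5, Pcna, Cdkn1a, Mdm2, Trp53 and Itgam, and the 8 genes most like the mean of the 9 among those with at least 5 CPM. 1 gene of the rule is not reported here. Others are said to be chosen after their values were seen. In list paragraphs, values are mean ± SD over 3 libraries at 3 days and 2 of uninjured mice.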

Additional observations from a re-analysis of the deposited data

Results flagged for a closer look

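For 6 of the 9 genes the change from uninjured mice differed between the times, by the test of the difference itself (edgeR, 3 days minus 1 day). The differences in log2 fold change were 6.51 for Exo1, 4.73 for Rad51ap1, 3.05 for Fancd2, 2.85 for Brca1, 1.76 for Blm and 1.66 for Brca2, each higher at 3 days. These are the results of 3 days against 1 day given above. Uninjured libraries cancel in the size of the difference but enter the spread that the test uses. The Brca1 call held in 2 of the 8 fits that left out a library and was lost without either uninjured one. The groups held 2 or 3 libraries, so no library was tested for standing apart from its group.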

How the results depend on the processing

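Over 153 refitted values of the 9 genes for 3 days against uninjured, 128 kept direction and side of the threshold, 19 lost a call and 6 gained one. For 3 days against 1 day, 137 of 153 were kept, 12 lost and 4 gained. For 1 day against uninjured, 144 of 151 were kept, with 1 gained. In that comparison 6 uncalled values changed sign. With a library left out, Rad51ap1 ranged from -0.35 to 1.24, Fancd2 from -0.38 to 0.34, Exo1 from -1.43 to 0.56 (0.06 without 1 day replicate 1) and Chek1 from -1.23 to 0.06, and Exo1 was at 0.13 with the replicate block. The cause was not tested. The fit to 2 groups could not test Rad51ap1 and Exo1 at 1 day.

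Leaving out 1 library gave 0 to 6, 0 to 1 and 4 to 7 of the 9 called higher for 3 days against uninjured, 1 day against uninjured and 3 days against 1 day. Among all genes it gave 97 to 603, 11 to 139 and 359 to 1165 higher and 11 to 379, 28 to 229 and 388 to 1197 lower.

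For 3 days against uninjured, the fit to 2 groups called 8 of the 9, adding Brca2, Rad54l and Chek1. DESeq2 and limma-voom called 6. Brca1 lost its call without the low-count filter (adjusted p = 0.258) and with the replicate block (0.175). Among all genes, 433 were higher and 171 lower. DESeq2 gave 816 higher and 479 lower, the fit to 2 groups 926 and 419. Lower calls were 273 with upper quartile scaling, 299 without the filter, 268 by limma-voom and 83 with the block. Of the calls 71.7% were higher, against 56.1% with upper quartile and 56.5% with library size scaling, which moved the median of all genes to -0.11 and -0.15. The median of the 9 was then 2.17 and 2.14.

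For 1 day against uninjured, 106 higher genes became 46 with library size scaling, 327 by DESeq2, 205 by limma-voom and 25 in the fit to 2 groups, and 202 lower ones 497 by DESeq2 and 85 in the fit to 2 groups. For 3 days against 1 day, 912 higher became 1401 by DESeq2. Brca1 lost that call with upper quartile scaling (0.0508), without the filter (0.220), by DESeq2 (0.0563), in the fit to 2 groups (0.0585) and with the block (0.114).

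The labels number replicates alike across groups. Deviations of same-numbered libraries correlated at -0.06 to 0.091. With 2 or 3 libraries in a group, this cannot show whether same-numbered libraries were paired or shared a batch. Settings other than leaving out a library gave 2 to 10 (3) higher calls among other recombination genes at 3 days against uninjured, 0 to 3 (1) among Fanconi, 2 to 6 (3) among checkpoint and 4 to 9 (5) among E2F genes, with the reported count in parentheses. With the replicate block 4 of the 9 were called at 3 days against uninjured, Brca1 being the one lost, and the Usp1 call was lost. Few counts limit Exo1, Rad51ap1, Fanci and Chek1 before 3 days.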
